A study of Mus musculus with 22 samples.

Results

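Whether ursodeoxycholic acid (UDCA) changed liver gene expression differently in Cyp2c70 knockout and wild-type mice was tested as the interaction of genotype and diet. For every gene the interaction is the UDCA effect in knockout mice (KO_UDCA minus KO_chow) minus the UDCA effect in wild-type mice (WT_UDCA minus WT_chow), on the log2 scale. A negative value means that UDCA lowered the gene more, or raised it less, in knockout than in wild-type mice, and a positive value the reverse. All 22 of 22 arrays entered the contrast, and it was computed for the 24015 of 24973 rows of the deposited table that carry 1 gene symbol. After 4 repeated symbols were reduced to 1 row each, 24011 genes were tested.

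Each array holds total liver RNA of 1 mouse, hybridised to an Affymetrix MoGene 2.0 ST array that measures RNA by the brightness of its probes. All mice were females of the C57BL/6J background, 12 weeks old. WT_chow (n = 5) and KO_chow (n = 5) had regular chow, and WT_UDCA (n = 6) and KO_UDCA (n = 6) had chow with 0.1% UDCA for 7 weeks, beginning at 5 weeks of age. KO stands for the Cyp2c70 knockout; no label states the construct or whether the deletion is confined to a tissue. The title of the series concerns reversal by UDCA of bile duct disease and fibrosis in the knockout.

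Bile acids are made from cholesterol in hepatocytes, secreted into bile and returned from the gut, and hydrophobic bile acids can injure cells. Cyp2c70 is the mouse enzyme that makes muricholic acids, the hydrophilic bile acids that set mice apart from humans, and mice without it keep a more hydrophobic pool. UDCA is itself a hydrophilic bile acid, used as a drug in cholestatic liver disease. In bile duct injury the textbook course is a proliferation of cholangiocytes (the cells lining bile ducts), recruitment of monocytes, and deposition of collagen by portal fibroblasts and stellate cells.

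The targeted gene checked the labels. Cyp2c70 was lower in all 11 knockout arrays (10.27 to 10.83) than in any of the wild-type arrays (11.22 to 11.62), and its interaction was -0.09 (95% interval -0.37 to 0.18; limma adjusted p = 0.814). The probes of Cyp2c70 kept signal in the knockout, and no label says where the deletion lies relative to them. Array medians lay between 4.85 and 4.96 in log2 intensity in all 4 groups. On the first principal component KO_chow replicates 1 to 5 lay at 18.6, 53.4, 32.5, 15.7 and 51.9, and the other 17 arrays lay between -13.1 and -0.66. KO_chow replicates 2 and 5 therefore stood apart, and counts are given below with and without them. Of 13 measured hepatocyte markers 0 were called in the interaction (limma) and 2 for UDCA in knockout. Their mean relative to WT_chow ran from -0.05 to 0.05 in WT_chow, 0.00 to 0.07 in WT_UDCA, -0.25 to -0.02 in KO_chow and -0.06 to 0.09 in KO_UDCA, so KO_chow lay below WT_UDCA and overlapped WT_chow and KO_UDCA; its part in other results was not tested.

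The UDCA response of the liver differed between the genotypes at 642 of 24011 genes (2.67%; limma, two-sided, Benjamini-Hochberg adjusted p below 0.05). Of these, 498 (2.07% of all genes) had a negative interaction and 144 (0.600%) a positive one. Matrix, cholangiocyte, macrophage and epithelial injury genes were among the negative ones, led by Sprr1a at -5.81 and Mmp12 at -4.58, and liver enzymes were among the positive ones, led by Sult2a1 at 2.51 and Cyp8b1 at 2.01. The interaction reached 2-fold in 195 genes, 172 of them negative. Over all 24011 genes the median interaction was 0.02, with an SD of 0.31, and the median standard error of a gene was 0.17.

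Most of this contrast lay in the knockout. UDCA changed 2701 genes in knockout mice (11.2%; 1208 higher and 1493 lower) and 0 in wild-type mice, where limma gave 1338 genes with an unadjusted p below 0.05 and a smallest adjusted p of 0.461. The wild-type count was also 0 in each of the 10 other settings tried. Among these was a weighting of arrays by group, which let the variance differ between groups (smallest limma adjusted p = 0.334). The count was 0 in 21 of the 22 fits that each left out 1 array, and it was 1 without WT_chow replicate 1. The fit as reported used 1 variance per gene shared by all 4 groups, so the spread of KO_chow entered the wild-type test too. Ccdc138, for example, had SDs of 0.11 in WT_chow, 0.10 in WT_UDCA and 0.37 in KO_chow. Its 2 wild-type groups did not overlap (4.95 to 5.23 and 4.51 to 4.82), yet it was not called (limma adjusted p = 0.717). A count of 0 therefore does not show that UDCA had no effect in wild-type mice. Conversely, in genes that spread most in KO_chow the shared variance was smaller than the KO_chow variance. Standard errors and p-values of the interaction may be too small for such genes. Of the 642 genes, 621 were called for UDCA in knockout mice and 21 in neither genotype. The knockout effect was the larger one in 626 of them (97.51%), beside 15314 of all 24011 genes (63.78%). The median diet effect of the 498 negative genes was -0.78 in knockout and 0.06 in wild-type mice, and that of the 144 positive genes was 0.58 and -0.11. These component comparisons use the same arrays as the interaction, so the counts describe it and add no support.

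**Figure D1:**
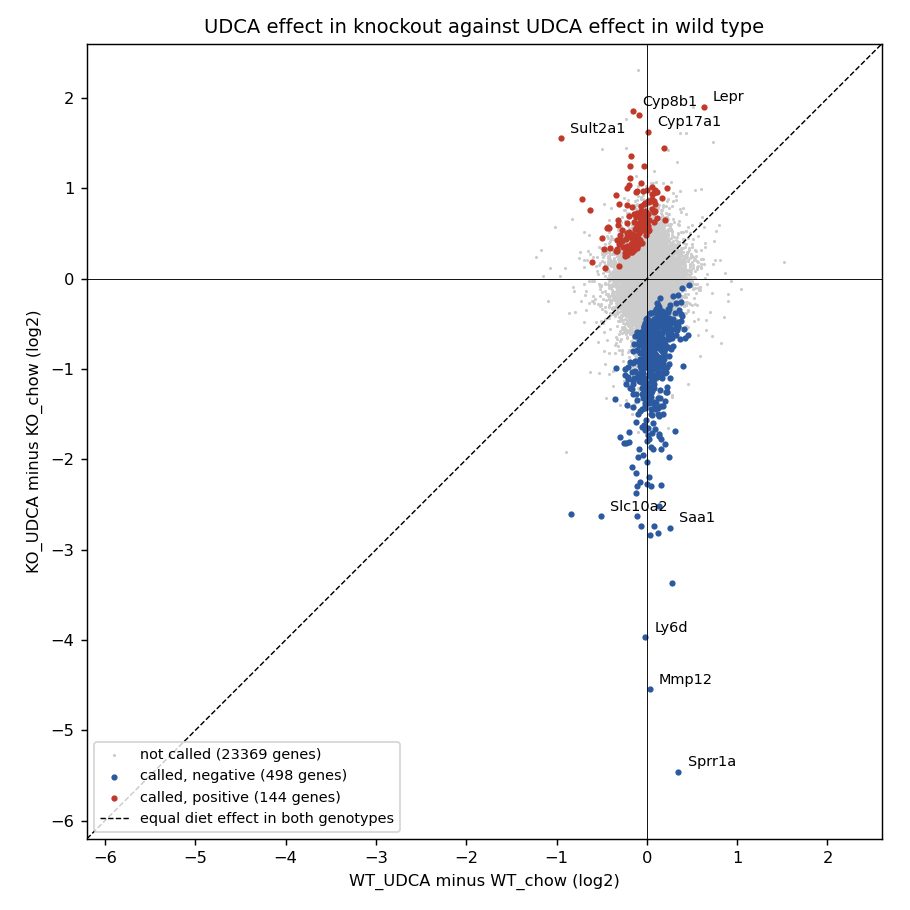
The UDCA effect in knockout mice (vertical axis, KO_UDCA minus KO_chow, log2) is plotted against the UDCA effect in wild-type mice (horizontal axis, WT_UDCA minus WT_chow, log2) for 24011 genes, with the 498 called negative genes in blue, the 144 called positive genes in red and a dashed line where both effects are equal. The called genes spread along the vertical axis down to Sprr1a at -5.46 and Mmp12 at -4.54, while the wild-type effect of all 642 stays within 0.95 of 0.

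Among the 642 genes, point estimates of the diet effect had opposite signs in the 2 genotypes in 458, beside 11446 of all 24011 genes. The wild-type part was small, below 0.5 in size in 635 of the 642 and in 23858 of all genes. Since limma called 0 genes for UDCA in wild type, none could be called with opposite signs in both genotypes. The same contrast can be read as a change of the genotype gap. For the 498 negative genes the median of knockout minus wild type was 0.91 on chow and 0.04 under UDCA, and for the 144 positive genes it was -0.65 and 0.02. The gap was smaller in size under UDCA in 636 of the 642, beside 16334 of all 24011 genes. Since the 642 were picked by the difference of these 2 gaps, a changed gap follows from the selection and adds no support. Sult2a1 was the 1 gene of the 642 that was also called between the genotypes under UDCA (-2.20, limma adjusted p = 0.0211). The 5 KO_chow arrays lay outside the range of all other 17 arrays in 382 of the 642 genes (59.5%), and in 724 of all 24011 genes (3.02%).

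Single genes of squamous epithelium and epithelial injury, Sprr1a and Ly6d, were among the most negative of the named genes. Of the 18 measured members, 6 were called negative and 0 positive, with a median of -0.23 against 0.02 over all genes. Sprr1a encodes a small proline-rich protein of the cornified envelope. Its log2 intensity was 4.39, 4.07, 4.04, 4.07 and 4.06 in WT_chow and 7.68, 11.50, 9.44, 7.42 and 11.36 in KO_chow replicates 1 to 5. It ran from 3.87 over a median of 4.39 to 5.35 in WT_UDCA, and from 3.76 over 3.94 to 4.50 in KO_UDCA. Every KO_chow mouse was above every other mouse, and the KO_UDCA mice overlapped both wild-type groups. The interaction of -5.81 ± 0.74 (SE, limma adjusted p = 9.11e-05) was made of -5.46 in knockout mice and 0.35 in wild type (limma adjusted p = 0.988). The SD was 1.94 in KO_chow and 0.15, 0.53 and 0.29 in WT_chow, WT_UDCA and KO_UDCA. With 1 shared variance, this standard error and p-value may be too small. Outside KO_chow, all but 1 of the Sprr1a values lay below the array medians. Signal over background was not available, so for genes this dim on one side the size of a log2 difference is limited by background. Without KO_chow replicates 2 and 5 it was -4.51 (limma adjusted p = 4.84e-06). On unlogged intensities, where the contrast is a difference of differences, the call was lost (limma adjusted p = 0.204). Other genes lost theirs too, among them Ly6d, Anxa2, Emp1, Mmp12, Mmp13, Tnc and Thbs1.

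Ly6d, a membrane-anchored Ly6 protein of stratified epithelia, measured 8.76, 11.24, 9.54, 9.01 and 11.36 in KO_chow, and from 5.37 to 6.44 in the other 17 arrays, so the groups did not overlap; its interaction was -3.95 ± 0.48 (limma adjusted p = 6.99e-05). Anxa2, a calcium-dependent membrane-binding protein, measured 7.43, 9.76, 8.10, 7.60 and 9.72 in KO_chow against 5.47 to 6.30 elsewhere, with an interaction of -2.64. Replicates 2 and 5 were the highest KO_chow mice for all of Sprr1a, Ly6d and Anxa2, but replicates 1, 3 and 4 also lay above every mouse of the other groups. Emp1, a small tetraspan membrane protein, had an interaction of -2.17, and Anxa1, of the same family as Anxa2, had -1.18. Plaur, the urokinase receptor, had -1.42, but its call held in 6 of the 22 fits that left out 1 array (limma adjusted p up to 0.0841), and without KO_chow replicates 2 and 5 the value was -0.78 (limma adjusted p = 0.119).

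Extracellular matrix genes gave the largest called group, with 22 of 33 measured members negative and 0 positive and a median interaction of -1.01. Without KO_chow replicates 2 and 5, 16 were called negative, beside 0.766% of all genes, and the median was -0.72. The proteases included Mmp12, the macrophage elastase. Mmp12 measured 5.01, 5.42, 4.86, 4.57 and 4.53 in WT_chow, 8.46, 10.86, 10.35, 8.66 and 11.01 in KO_chow, 4.53 to 5.33 in WT_UDCA (median 4.97), and 5.10 to 5.73 in KO_UDCA (median 5.30). The KO_chow mice were at least 2.73 log2 units above all others, and KO_UDCA mice lay in or just above the upper part of the wild-type range. The interaction was -4.58 ± 0.48 (limma adjusted p = 1.3e-05). Mmp13, a collagenase, measured 5.30, 7.43, 7.09, 5.18 and 7.58 in KO_chow against 3.31 to 4.18 elsewhere, with an interaction of -2.82 ± 0.46 (limma adjusted p = 0.00163).

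Timp1, the inhibitor of these proteases, changed in the same direction as they did: it measured 5.00, 6.58, 5.77, 4.97 and 5.90 in KO_chow, 3.24 to 4.02 elsewhere, and had an interaction of -2.23 ± 0.28 (limma adjusted p = 7.86e-05). The glycoproteins Tnc (tenascin C) and Thbs1 (thrombospondin) had interactions of -2.26 and -2.18. Of the fibrillar collagens, Col1a1 measured 8.02, 8.91, 8.20, 8.34 and 8.82 in KO_chow, 6.20 to 6.44 in WT_chow, 6.01 to 6.70 in WT_UDCA and 6.26 to 7.21 in KO_UDCA. The 5 KO_chow mice did not overlap any other group, and the spread among them was smaller than for Mmp12 or Sprr1a. Its interaction was -1.95 ± 0.24 (limma adjusted p = 6.99e-05), past the threshold under every setting tried. Col3a1 (-1.59), Col6a3 (-1.59), Col1a2 (-1.29), Mmp7 (-1.61), Lum (-1.13), Mmp2 (-1.05) and Sparc (-0.86) were called too, with and without KO_chow replicates 2 and 5, whereas Lox (-1.05), Ccn2 (-1.04), Col4a1 (-1.01) and Vim (-0.85) were not called without them.

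Several of these genes carry a match to the binding motif of AP-1, the Fos and Jun family of transcription factors, just upstream of their start. The motif searched was TGANTCA, which reads the same on both strands, in windows from 250 bases before to 50 bases after each start (RefSeq, GRCm38.p6). It was present in 5 of the 11 genes with a window among the 14 most negative named genes (45.5%; Sprr1a, Mmp12, Gpnmb, Mmp13 and Anxa2) and in 0 of 10 among the 14 most positive. It was present in 54 of 380 negative called genes (14.2%), 4 of 107 positive called genes (3.74%), 1525 of 18112 measured genes (8.42%) and 7.81% of all 32851 windows of that length. A match describes these letters and is neither a shown binding site nor a cause. For 4 of the 5 (not Gpnmb), the 250 bases before the start are printed with the motif in capitals, as examples of where it lies in strongly negative genes. Sprr1a holds it at 146 and 116 bases before the start (chr3:92485882-92486131, minus strand), Mmp13 at 35 (chr9:7272264-7272513, plus strand), Mmp12 at 44 (chr9:7347124-7347373, plus strand; the other of its 2 windows is not shown) and Anxa2 at 95 (chr9:69453433-69453682, plus strand).
Sprr1a: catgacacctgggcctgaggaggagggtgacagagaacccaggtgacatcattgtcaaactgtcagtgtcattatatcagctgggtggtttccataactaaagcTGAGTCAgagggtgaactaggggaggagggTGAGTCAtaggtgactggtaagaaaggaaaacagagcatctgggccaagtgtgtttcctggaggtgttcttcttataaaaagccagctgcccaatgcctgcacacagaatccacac
Mmp13: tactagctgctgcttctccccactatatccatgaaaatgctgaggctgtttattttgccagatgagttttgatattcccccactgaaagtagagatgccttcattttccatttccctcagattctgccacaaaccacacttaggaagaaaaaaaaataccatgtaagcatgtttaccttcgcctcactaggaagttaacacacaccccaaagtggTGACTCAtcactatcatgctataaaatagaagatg
Mmp12: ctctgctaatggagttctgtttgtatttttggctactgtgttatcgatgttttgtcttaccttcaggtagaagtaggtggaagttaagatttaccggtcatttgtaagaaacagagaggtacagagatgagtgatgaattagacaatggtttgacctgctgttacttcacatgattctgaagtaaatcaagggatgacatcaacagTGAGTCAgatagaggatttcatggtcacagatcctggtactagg
Anxa2: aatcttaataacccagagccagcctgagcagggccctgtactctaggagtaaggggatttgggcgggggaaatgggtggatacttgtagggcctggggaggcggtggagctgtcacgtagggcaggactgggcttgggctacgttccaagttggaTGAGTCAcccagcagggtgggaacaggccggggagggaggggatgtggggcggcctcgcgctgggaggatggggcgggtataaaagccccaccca
The 2 copies in Sprr1a, the gene with the most negative interaction, are both TGAGTCA, as are the single copies in Mmp12 and Anxa2, while Mmp13 has TGACTCA.

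**Figure D2:**
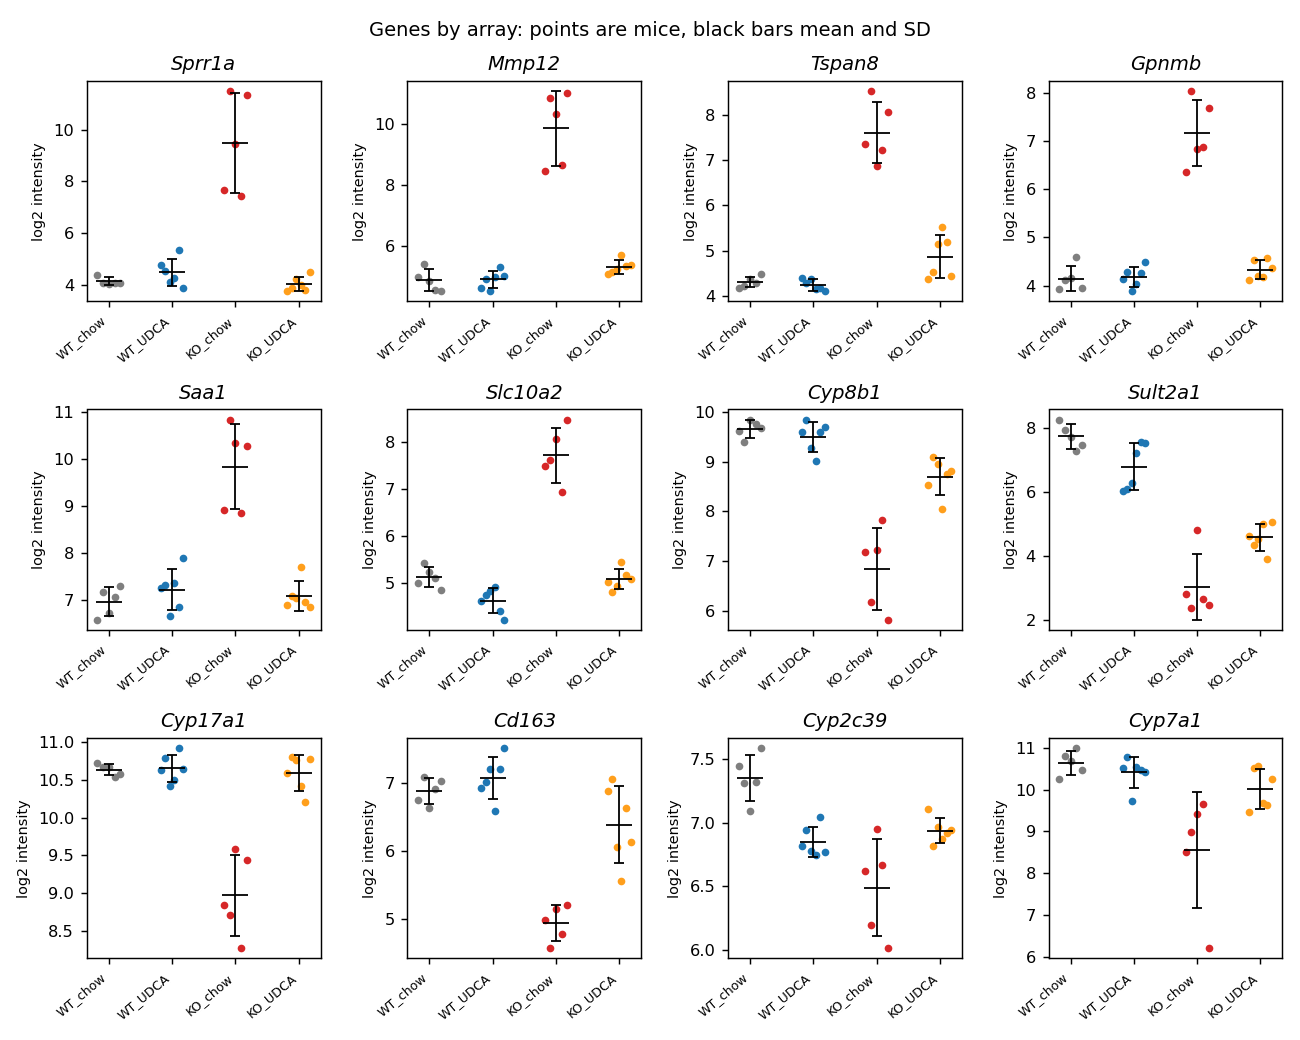
Log2 intensity of 12 genes is plotted for each of the 22 mice in 4 groups, with black bars for the mean and SD of a group. Sprr1a, Mmp12, Tspan8, Gpnmb, Saa1 and Slc10a2 were higher in all 5 KO_chow mice than in any other, Cyp8b1, Sult2a1, Cyp17a1 and Cd163 were lower in KO_chow than in either wild-type group, Cyp2c39 is a gene with the larger change in wild-type mice, and Cyp7a1 was not called (limma adjusted p = 0.118).

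Markers of cholangiocytes followed the same course. Of 17 measured members, 9 were called negative and 0 positive, with a median of -1.01; without KO_chow replicates 2 and 5, 6 were called and the median was -0.71. The summed intensity of the list was 636 to 806 in WT_chow, 679 to 879 in WT_UDCA, 1256 to 2134 in KO_chow and 803 to 997 in KO_UDCA. In whole liver RNA, fewer cells of a type and less RNA per cell cannot be told apart. Tspan8, a tetraspanin of ductal epithelium, measured 7.35, 8.52, 6.88, 7.23 and 8.06 in KO_chow, 4.18 to 4.48 in WT_chow, 4.10 to 4.40 in WT_UDCA and 4.38 to 5.51 in KO_UDCA. The KO_chow mice stood clear of all others, while KO_UDCA mice reached higher than any wild-type mouse. Its interaction was -2.68 ± 0.32 (limma adjusted p = 5.69e-05), called under every setting tried.

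The mucin Muc1 (-1.46), the surface proteins Cd24a (-1.28) and Epcam (-1.03) and the chloride channel Cftr (-1.01) were called with and without KO_chow replicates 2 and 5. The keratins had smaller interactions. Krt19 measured 5.28, 5.15, 5.16, 5.04 and 5.22 in KO_chow and 3.87 to 4.84 elsewhere, with an interaction of -0.69 ± 0.16 (limma adjusted p = 0.0179; 0.0749 without KO_chow replicates 2 and 5). Krt7 was not called (-0.44, 95% interval -0.81 to -0.07; limma adjusted p = 0.205). Sox9, a transcription factor of biliary and progenitor cells, had -1.22 (limma adjusted p = 0.0234), with 0.0529 without KO_chow replicate 5. Prom1 had -1.24, and its call held in 3 of 22 fits that left out 1 array (limma adjusted p up to 0.0919).

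Markers of the collagen-producing cells moved less than the matrix genes did. For stellate cells 2 of 12 measured members were negative and 1 positive, with a median of -0.26: Cygb (-0.88) and the growth factor Hgf (-0.65) were negative, and Angptl6 was positive (0.70 ± 0.12; limma adjusted p = 0.00284). Angptl6 measured 6.05, 5.86, 6.36, 6.35 and 5.99 in KO_chow and 6.61 to 6.95 elsewhere, so in this marker the knockout on chow was the low group. For portal fibroblasts 2 of 12 were negative, Dpt (dermatopontin, -0.97) and Cd34 (-0.95), with a median of -0.20. Dpt measured 7.88 to 8.45 in KO_chow, 6.64 to 7.80 in KO_UDCA and 6.41 to 6.87 in the wild-type groups, so KO_UDCA mice ran from the wild-type range up to just below KO_chow. Without KO_chow replicates 2 and 5, Angptl6 (0.57) and Cd34 (-0.91) remained called, and Cygb, Hgf and Dpt had adjusted p-values of 0.0553, 0.0875 and 0.0795 in limma.

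**Figure D3:**
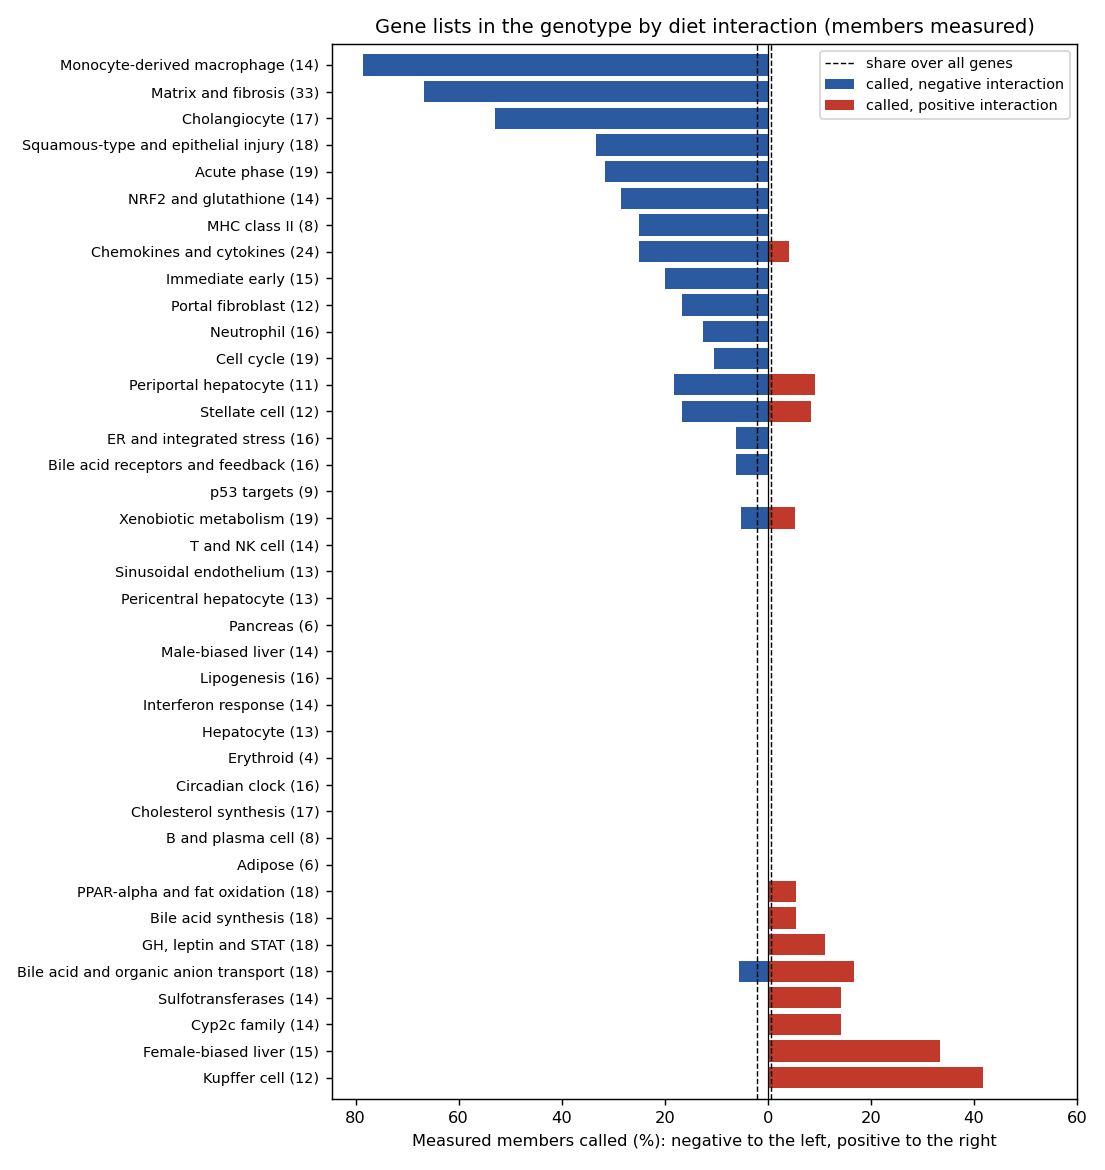
Bars give the share of measured members of each of 39 gene lists that were called in the interaction, negative to the left and positive to the right, with dashed lines at the shares over all 24011 genes (2.07% and 0.600%). Monocyte-derived macrophage, matrix and cholangiocyte lists extend farthest to the left and Kupffer cell and female-biased liver lists farthest to the right, and 14 lists have no called member.

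Called markers of the 2 kinds of liver macrophage went opposite ways. Of 14 measured markers of monocyte-derived macrophages, which enter the liver from blood, 11 were called negative and 0 positive (median -1.14). Of 12 measured markers of Kupffer cells, the resident macrophages, 5 were called positive and 0 negative (median 0.33). Called or not, 13 of the 14 monocyte-derived values were negative, whereas the Kupffer values were mixed, with 8 positive and 4 negative. Without KO_chow replicates 2 and 5, 6 monocyte-derived and 0 Kupffer markers were called, with medians of -0.94 and 0.38. Summed intensity of the monocyte-derived list was 807 to 866 in WT_chow, 849 to 983 in WT_UDCA, 1651 to 5089 in KO_chow and 878 to 1198 in KO_UDCA. That of the Kupffer list was 2661 to 3066, 2285 to 3228, 2412 to 2487 and 2416 to 3647, and there the KO_chow range overlapped those of both UDCA groups and lay below that of WT_chow. The part of these cell markers in the results on other genes was not tested.

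Gpnmb, a glycoprotein of lipid-laden macrophages, measured 6.36, 8.05, 6.84, 6.89 and 7.70 in KO_chow and 3.89 to 4.59 in the other 17 arrays. No KO_chow mouse came near another group, and the interaction was -2.87 ± 0.30 (limma adjusted p = 1.12e-05), called under every setting that tested it. Cd14, the co-receptor for bacterial lipopolysaccharide, measured 6.85, 9.50, 8.56, 6.62 and 9.23 in KO_chow and 5.16 to 6.19 elsewhere (-2.28; limma adjusted p = 0.0171, and 0.0621 without KO_chow replicates 2 and 5). Itgax (-1.92), the chemokine receptor Ccr2 (-1.30) and Trem2 (-1.05) were called with and without these 2 mice. Lgals3 (galectin, -2.03) and Lpl (lipoprotein lipase, -2.03) were less stable: their calls held in 3 and 10 of 22 fits that left out 1 array, with limma adjusted p-values up to 0.0934 and 0.0776.

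Among Kupffer cell genes, Cd163, the scavenger receptor for haemoglobin, measured 6.75, 7.10, 6.64, 6.92 and 7.03 in WT_chow, 4.99, 4.57, 5.15, 4.79 and 5.22 in KO_chow, 6.59 to 7.52 in WT_UDCA and 5.57 to 7.05 in KO_UDCA (median 6.38). The KO_chow mice were below all others, and KO_UDCA mice spread from just above them up into the wild-type range. The interaction was 1.26 ± 0.29 (limma adjusted p = 0.0215; 0.0550 without KO_chow replicate 2). The receptors Timd4 (0.82) and Vsig4 (0.68) and the lectin Fcna (0.67) were called in 16, 5 and 8 of the 22 fits that left out 1 array, with limma adjusted p-values up to 0.0630, 0.0957 and 0.0883. Mrc1, the mannose receptor, which stands on the sinusoidal endothelium list and is also a macrophage gene, had 0.56 and was not called (95% interval 0.23 to 0.88; limma adjusted p = 0.0583).

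Other blood cells gave fewer calls. The summed intensity of the neutrophil list was 494 to 979 in WT_chow, 531 to 737 in WT_UDCA, 1248 to 4719 in KO_chow and 535 to 681 in KO_UDCA. Most of the KO_chow sum came from Lcn2, which measured 9.92 to 12.07 there and 7.87 to 9.49 elsewhere. The list mean relative to WT_chow, in log2, weighs all members alike. It ran from -0.04 to 0.08 in WT_chow, -0.04 to 0.32 in WT_UDCA, 0.20 to 0.88 in KO_chow and -0.14 to 0.17 in KO_UDCA. Of 16 neutrophil markers, Lcn2 (lipocalin, -2.51) and Mmp8 (-0.92) were called, and Lcn2 is also made by stressed hepatocytes and stands on the acute phase list too; Mmp8 was called in 9 of 22 fits that left out 1 array (limma adjusted p up to 0.0836). Of 8 MHC class II genes, H2-Aa (-1.05) and H2-Eb1 (-0.72) were negative, and 0 of 8 were called without KO_chow replicates 2 and 5. H2-Aa measured 8.67, 8.95, 8.47, 8.80 and 9.01 in KO_chow and 7.26 to 8.44 elsewhere, with 1 WT_UDCA mouse at the top of that range. No member was called among 14 markers of T and NK cells, 8 of B and plasma cells, or 13 of sinusoidal endothelium. Over all genes the share called was 2.67%, so 0 calls in lists this short do not show an absence of change. Cd3g had 0.54 (95% interval 0.09 to 1.00, limma adjusted p = 0.205). Of the sinusoidal endothelium values, 12 were positive and 1 negative (median 0.31). Those of T and NK cells were mixed, with 8 positive and 6 negative (median 0.04).

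Chemokines had 6 of 24 measured members called negative and 1 positive, and 1 negative remained without KO_chow replicates 2 and 5. Cxcl14 was that gene (-1.91 ± 0.36; limma adjusted p = 0.00453; -1.32 without the 2 mice), with 6.63, 8.44, 7.54, 6.47 and 8.25 in KO_chow and 5.12 to 5.67 elsewhere. The neutrophil attractant Cxcl1 (-1.40; limma adjusted p = 0.00933) was at 0.0630 without them. The monocyte attractant Ccl2 measured 5.37, 7.66, 6.90, 4.85 and 8.41 in KO_chow and 3.75 to 5.07 elsewhere, so KO_chow replicate 4 lay within the other groups; its interaction of -2.22 was called in 4 of 22 fits that left out 1 array (limma adjusted p up to 0.0970). Ccl3 had -1.16 (13 of 22 fits; limma adjusted p up to 0.0725). The positive one was Cxcl13, which draws B cells, with 1.28 (8 of 22 fits; limma adjusted p up to 0.102).

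Of the acute phase proteins, which hepatocytes secrete in inflammation, 6 of 19 were called negative and 0 positive, with a median of -0.37 (3 and -0.17 without KO_chow replicates 2 and 5). Saa1 measured 6.58, 7.18, 6.74, 7.07 and 7.31 in WT_chow, 8.92, 10.85, 10.34, 8.85 and 10.29 in KO_chow, 6.66 to 7.90 in WT_UDCA (median 7.29) and 6.86 to 7.71 in KO_UDCA (median 7.01). The KO_chow mice formed the only high group, and KO_UDCA could not be told from wild type by range. The interaction was -3.01 ± 0.41 (limma adjusted p = 0.000248). Saa2, a close copy of Saa1 whose probes may not separate the 2, had -2.94, Lcn2 -2.51, and the metalloreductase Steap4 -1.27 (limma adjusted p = 0.0123; 0.0838 without KO_chow replicates 2 and 5).

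Among 18 genes of bile acid synthesis, 1 was called and the median was 0.35, with 17 of the 18 values positive. That gene was Cyp8b1, the sterol hydroxylase that directs synthesis towards cholic acid. It measured 9.61, 9.39, 9.85, 9.76 and 9.69 in WT_chow, 7.19, 6.18, 7.22, 7.83 and 5.81 in KO_chow, 9.02 to 9.83 in WT_UDCA (median 9.60) and 8.04 to 9.09 in KO_UDCA (median 8.79). KO_chow was the low group without overlap, and KO_UDCA lay above it, below every WT_chow mouse and overlapping the lowest WT_UDCA mouse. The interaction was 2.01 ± 0.37 (limma adjusted p = 0.00388), a 4.02-fold difference of the diet responses; without KO_chow replicates 2 and 5 it was 1.44 (limma adjusted p = 0.00871). Cyp7a1, the rate-limiting enzyme of the pathway, measured 8.52, 8.99, 9.43, 9.67 and 6.20 in KO_chow and 9.46 to 11.00 elsewhere. KO_chow replicate 5 lay far below the other 4, and the interaction of 1.68 ± 0.57 was not called (95% interval 0.51 to 2.85; limma adjusted p = 0.118), and this interval allows a small or a large positive difference.

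Transporters of bile acids and other organic anions had 1 negative and 3 positive calls among 18, with a median of 0.24. The negative one was Slc10a2, the sodium-dependent bile acid importer of ileum and bile duct cells. It measured 5.01, 5.43, 5.25, 5.11 and 4.85 in WT_chow, 7.48, 7.60, 8.05, 6.94 and 8.47 in KO_chow, 4.22 to 4.92 in WT_UDCA (median 4.68) and 4.82 to 5.45 in KO_UDCA (median 5.06). KO_chow stood alone at the top, and the wild-type point estimate was also downward at -0.50 (limma adjusted p = 0.79) beside -2.63 in knockout. The interaction was -2.12 ± 0.27 (limma adjusted p = 9.11e-05), called under every setting tried.

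Of the positive transporters, Slc10a1, the sodium-dependent bile acid importer of hepatocytes, measured 10.78, 10.50, 10.76, 10.92 and 10.29 in KO_chow and 11.07 to 11.37 elsewhere, with an interaction of 0.58 ± 0.13 (limma adjusted p = 0.0199; 0.0502 without KO_chow replicate 2). The organic anion importer Slco1a4 (0.97) and the sterol exporter subunit Abcg8 (0.78) were called in 14 and 5 of the 22 fits that left out 1 array (limma adjusted p up to 0.0717 and 0.0992). None of these 3 was called without KO_chow replicates 2 and 5. The canalicular bile salt exporter Abcb11 was not called (0.22, 95% interval -0.09 to 0.54; limma adjusted p = 0.516). Among 16 bile acid receptors and feedback genes 1 was called, S1pr2, a receptor for sphingosine phosphate and conjugated bile acids (-0.54, 8 of 22 fits, limma adjusted p up to 0.0982). The feedback repressor Nr0b2 was not (-0.22, 95% interval -0.86 to 0.41; limma adjusted p = 0.803).

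Sulfotransferases, which add sulfate to steroids and bile acids, had 2 of 14 measured members called positive and none negative. Sult2a1, which sulfates hydroxysteroids and bile acids, had the largest positive interaction of all named genes. It measured 8.25, 7.94, 7.72, 7.29 and 7.44 in WT_chow, 2.80, 2.35, 4.82, 2.64 and 2.45 in KO_chow, 6.01 to 7.55 in WT_UDCA (median 6.74) and 3.90 to 5.07 in KO_UDCA (median 4.57). Unlike the genes above, KO_UDCA remained below every wild-type mouse, and WT_UDCA reached lower than any WT_chow mouse. Every KO_chow value and the KO_UDCA median lay below the array medians, where the size of a difference is limited by background. The interaction of 2.51 ± 0.52 (limma adjusted p = 0.0112) was made of 1.56 in knockout and a point estimate of -0.95 in wild type (limma adjusted p = 0.823), and without KO_chow replicates 2 and 5 it was 2.10 (limma adjusted p = 0.085). Sult3a1 had 1.89 and was called in 8 of 22 fits that left out 1 array (limma adjusted p up to 0.0802). Close copies of these genes may share probes.

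In the Cyp2c family, the relatives of the targeted gene, 2 of 14 measured members were called positive, and both were called without KO_chow replicates 2 and 5. Cyp2c69 measured 9.91, 10.18, 10.65, 10.53 and 9.72 in KO_chow and 10.92 to 11.34 elsewhere, with an interaction of 1.01 ± 0.18 (limma adjusted p = 0.00284). Cyp2c39 measured 7.44, 7.31, 7.09, 7.32 and 7.59 in WT_chow, 6.62, 6.20, 6.95, 6.67 and 6.01 in KO_chow, 6.75 to 7.05 in WT_UDCA and 6.82 to 7.11 in KO_UDCA. Its point estimates went opposite ways, -0.50 in wild type (limma adjusted p = 0.51) and 0.45 in knockout (limma adjusted p = 0.022), and the 2 groups on UDCA overlapped. These genes are near copies of each other, and the assignment of signal to 1 of them is uncertain. Among 19 other genes of xenobiotic metabolism, Gstt3 was positive (0.96; 8 of 22 fits, limma adjusted p up to 0.0916) and Gstp1 negative (-0.70).

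Genes that female mouse livers express above male livers had 5 of 15 measured members called positive and 0 negative, with a median of 1.08 and no negative value among the 15. Of the male-biased genes 0 of 14 were called (median 0.18), beside 2.67% of all genes, but 11 of the 14 values were positive. The mean of the male-biased list relative to WT_chow ran from -0.16 to 0.08 in WT_chow and -0.60 to -0.235 in KO_chow. It ran from -0.32 to 0.25 in WT_UDCA and -0.54 to -0.01 in KO_UDCA, so KO_chow lay below WT_chow and overlapped both UDCA groups. Cyp17a1, the steroid hydroxylase and lyase of androgen synthesis, measured 10.54 to 10.72 in WT_chow, 8.85, 8.71, 9.58, 8.26 and 9.44 in KO_chow, 10.42 to 10.93 in WT_UDCA and 10.21 to 10.81 in KO_UDCA. KO_chow was the low group without overlap, and KO_UDCA overlapped both wild-type groups and reached below them. The interaction was 1.61 ± 0.24 (limma adjusted p = 0.000766), called under every setting tried and the 1 list member still called without KO_chow replicates 2 and 5. Sult2a1, Sult3a1, the acyl-CoA thioesterase Acot3 (1.43) and the growth hormone-regulated repressor Cux2 (0.85) made up the rest, and Acot3 and Cux2 held in 6 and 5 of 22 fits that left out 1 array (limma adjusted p up to 0.0983 and 0.109). The leptin receptor Lepr, on the growth hormone and leptin list, had 1.28 and held in 7 (limma adjusted p up to 0.0924).

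**Figure D4:**
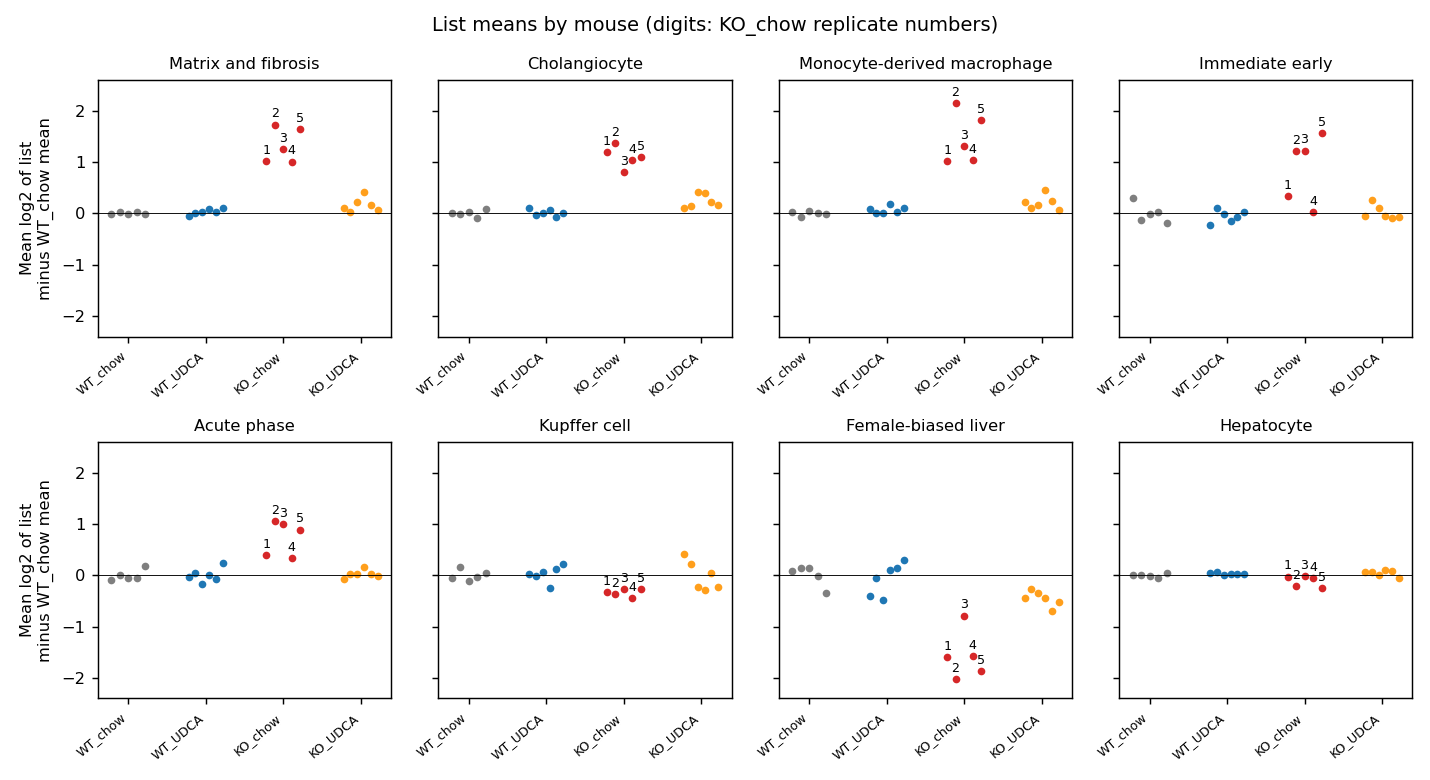
For 8 gene lists, each point is the mean log2 intensity of the list in 1 mouse minus the WT_chow mean, by group, and digits give the KO_chow replicate number. KO_chow lies above the other groups in the matrix (1.01 to 1.73), cholangiocyte (0.80 to 1.37) and monocyte-derived macrophage (1.03 to 2.15) lists, below the wild-type groups in the female-biased list (-2.02 to -0.79), and spans 0.03 to 1.57 in the immediate early list.

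Stress genes differed among the KO_chow mice. For immediate early genes the list mean relative to WT_chow was 0.33, 1.22, 1.23, 0.03 and 1.57 in KO_chow replicates 1 to 5, against 1.03, 1.73, 1.26, 1.01 and 1.64 for matrix genes, so replicates 1 and 4 lay above every other group in matrix genes, while in immediate early genes replicate 4 lay within the range of the other groups and replicate 1 just above it. Of 15 immediate early genes, 3 were called negative (median -0.85; 2 and -0.35 without KO_chow replicates 2 and 5). Ier3 measured 5.68, 8.05, 6.85, 5.54 and 8.06 in KO_chow and 4.71 to 5.48 elsewhere (-1.99 ± 0.46; limma adjusted p = 0.022), and the transcription factor Klf6 measured 7.03, 8.48, 7.93, 6.96 and 9.32 against 6.00 to 6.56 (-1.65; 0.0196, and 0.0513 without KO_chow replicate 2). Fosl2, a Fos-related subunit of AP-1, had -0.92 and was at 0.0528 or below in limma in each fit that left out 1 array, missing the threshold without KO_chow replicate 2 or WT_chow replicate 4.

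Of 14 targets of NRF2, the regulator of antioxidant genes, 4 were negative and 0 positive, with a median of -0.84. Cbr3, a carbonyl reductase, measured 3.29 to 3.60 in WT_chow, 3.95 to 4.87 in KO_chow, 3.56 to 4.12 in WT_UDCA and 3.21 to 4.03 in KO_UDCA. KO_chow replicate 1 overlapped both UDCA groups, and the other 4 KO_chow mice lay above them. The wild-type point estimate was upward (0.43, limma adjusted p = 0.79) and UDCA lowered it in knockout (-0.66, limma adjusted p = 0.0055). The interaction was -1.08 ± 0.21 (limma adjusted p = 0.00652), called under every setting that tested it, but the filter on dim genes left it out. Each Cbr3 value lay below the median of its array, where the size of a difference is limited by background. Ugdh (-0.97), which makes UDP-glucuronate, was called in all 22 fits that left out 1 array, and Gclc (-1.09), the rate-limiting enzyme of glutathione synthesis, in 13 (limma adjusted p up to 0.0718). Without KO_chow replicates 2 and 5, Cbr3 alone of the 4 was called. Of 16 ER and integrated stress genes the chaperone Hspa5 was called (-0.55; 11 of 22 fits, limma adjusted p up to 0.0769), and Xbp1 was not (-0.38, 95% interval -0.77 to 0.02). Of 19 cell cycle genes, Mcm6 (-1.14) and Cdk1 (-0.77) were negative, and Mcm6 was called without KO_chow replicates 2 and 5. Of 9 p53 targets none was called (Cdkn1a -1.13, 95% interval -2.14 to -0.13; limma adjusted p = 0.237).

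Metabolic lists had few called members, which does not show that they changed little. Of 18 PPAR-alpha and fat oxidation genes 1 was called, Eci3, an enoyl-CoA isomerase (1.53 ± 0.23; limma adjusted p = 0.000853), although the median was 0.50 and no value was negative. Eci3 measured 4.37, 3.68, 4.57, 4.23 and 4.09 in KO_chow and 5.07 to 6.08 elsewhere, without overlap. None of 16 lipogenesis genes was called (Dgat2 0.35, 95% interval 0.10 to 0.60), nor any of 17 cholesterol synthesis genes (Cyp51 -0.44, 95% interval -0.86 to -0.02). The same held for 13 pericentral, 16 clock and 14 interferon response genes, and for the erythroid, pancreas and adipose lists of 4, 6 and 6 genes. Called or not, values were positive in 15 of the 16 lipogenesis, all 13 pericentral and 13 of the 16 clock genes. Their medians were 0.26, 0.38 and 0.31, and 0.14, 0.16 and 0.18 without KO_chow replicates 2 and 5. All 14 interferon response values were negative (median -0.22, and -0.01 without these 2 mice). Cholesterol synthesis values were mixed, with 7 positive and 10 negative. On the periportal list of 11 genes, the adhesion molecule Cdh1 (-1.48) and Sox9 were negative and the urea cycle enzyme Asl was positive (0.56; 6 of 22 fits that left out 1 array, limma adjusted p up to 0.0914). In all, 102 of 544 measured list genes were called, on 25 of 39 lists, beside 642 of all 24011 genes (2.67%). The lists were chosen with earlier results of these data known, so this difference adds no support.

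Some of the largest interactions belong to no list. Olfr111, of the olfactory receptor family, had the smallest p of all genes; the naming rule leaves that family out, and it is named here after its values were seen. It measured 4.57 to 5.39 in KO_chow, 1.15 to 2.35 in WT_chow, 1.32 to 2.51 in WT_UDCA and 1.44 to 1.85 in KO_UDCA, so KO_chow stood alone. The other groups lay far below the array medians, where the size of a difference is limited by background. Its interaction was -3.65 ± 0.29 (limma adjusted p = 1.65e-07), and -3.64 without KO_chow replicates 2 and 5. Elovl7, a fatty acid elongase, measured 5.80, 7.99, 6.16, 5.70 and 7.38 in KO_chow and 3.75 to 4.64 elsewhere (-2.44 ± 0.40; limma adjusted p = 0.00171), and the Myb-family transcription factor Mybl1 measured 4.77, 7.22, 6.06, 4.22 and 7.36 against 3.43 to 3.89 (-2.34; limma adjusted p = 0.0164). In both, KO_chow replicates 2 and 5 were the highest and the remaining 3 still lay above all other mice. Of the positive ones, Scnn1a, a subunit of the epithelial sodium channel, measured 6.83, 6.03, 6.67, 6.97 and 5.76 in KO_chow and 7.07 to 7.75 elsewhere (1.24 ± 0.22; limma adjusted p = 0.00381). The muscle LIM protein Csrp3 (1.26), the acid phosphatase Acpp (1.13) and Hnf4aos (1.23), a transcript antisense to Hnf4a, were called in all 22 fits that left out 1 array. The mitochondrial acyl-CoA synthetase Acss3 (1.14) was called in 4 (limma adjusted p up to 0.0975).

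The wild-type effect was the larger one in 16 of the 642 genes, and 0 of them were called for UDCA in wild-type mice. The 8 with the largest interactions that the naming rule admits were Cyp2c39 (0.95), Ccdc138 (0.75), Gstp1 (-0.70), Serinc4 (0.66), Vill (-0.63), Nubpl (0.63), Glipr1l1 (0.59) and Adamts3 (-0.59). Gstp1, a glutathione transferase, measured 9.80, 9.94, 9.72, 9.85 and 9.85 in WT_chow, 9.91 to 10.31 in WT_UDCA (median 10.26), 10.25, 10.52, 10.30, 10.23 and 10.84 in KO_chow and 9.93 to 10.39 in KO_UDCA (median 10.04). Of the 6 WT_UDCA mice, 5 lay above every WT_chow mouse, and the KO_UDCA median lay below every KO_chow mouse, with point estimates of 0.36 (limma adjusted p = 0.74) and -0.34 (limma adjusted p = 0.04), and the 2 UDCA groups overlapped. Cyp2c39, Ccdc138 and Gstp1 were called in all 22 fits that left out 1 array; the other 5 were called in 4 to 10, with limma adjusted p-values up to 0.113 (Glipr1l1). Elovl3, a fatty acid elongase, had the largest wild-type estimate among genes named here (-1.07; limma adjusted p = 0.46), and its interaction was not called (1.19, 95% interval 0.43 to 1.95; limma adjusted p = 0.0847).

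The number of called genes depended on the KO_chow mice. Without replicates 2 and 5 of that group 207 genes were called (0.862% of all genes; 184 negative, 0.766%, and 23 positive, 0.0958%), of which 202 were among the 642. Without KO_chow replicate 2 alone the count was 301, without replicate 5 it was 370, without replicate 1 it was 1028 and without replicate 4 it was 1219. Among the other mice, leaving out WT_chow replicate 1, 3, 4 or 5 gave 394, 415, 404 and 427, and leaving out KO_UDCA replicate 3 or 6 gave 425 and 405. Of the 84 called genes examined one by one, 49 were called in all 22 such fits and 39 without KO_chow replicates 2 and 5. Of all 103 genes examined, 84 were called as reported, 38 on unlogged intensities and 12 with sample numbers 1 to 15 only. None of the 642 genes had the opposite sign in any of the 32 alternatives in which it was tested. Since the 642 were picked by a test on these same arrays, the lack of sign changes adds no support.

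**Figure D5:**
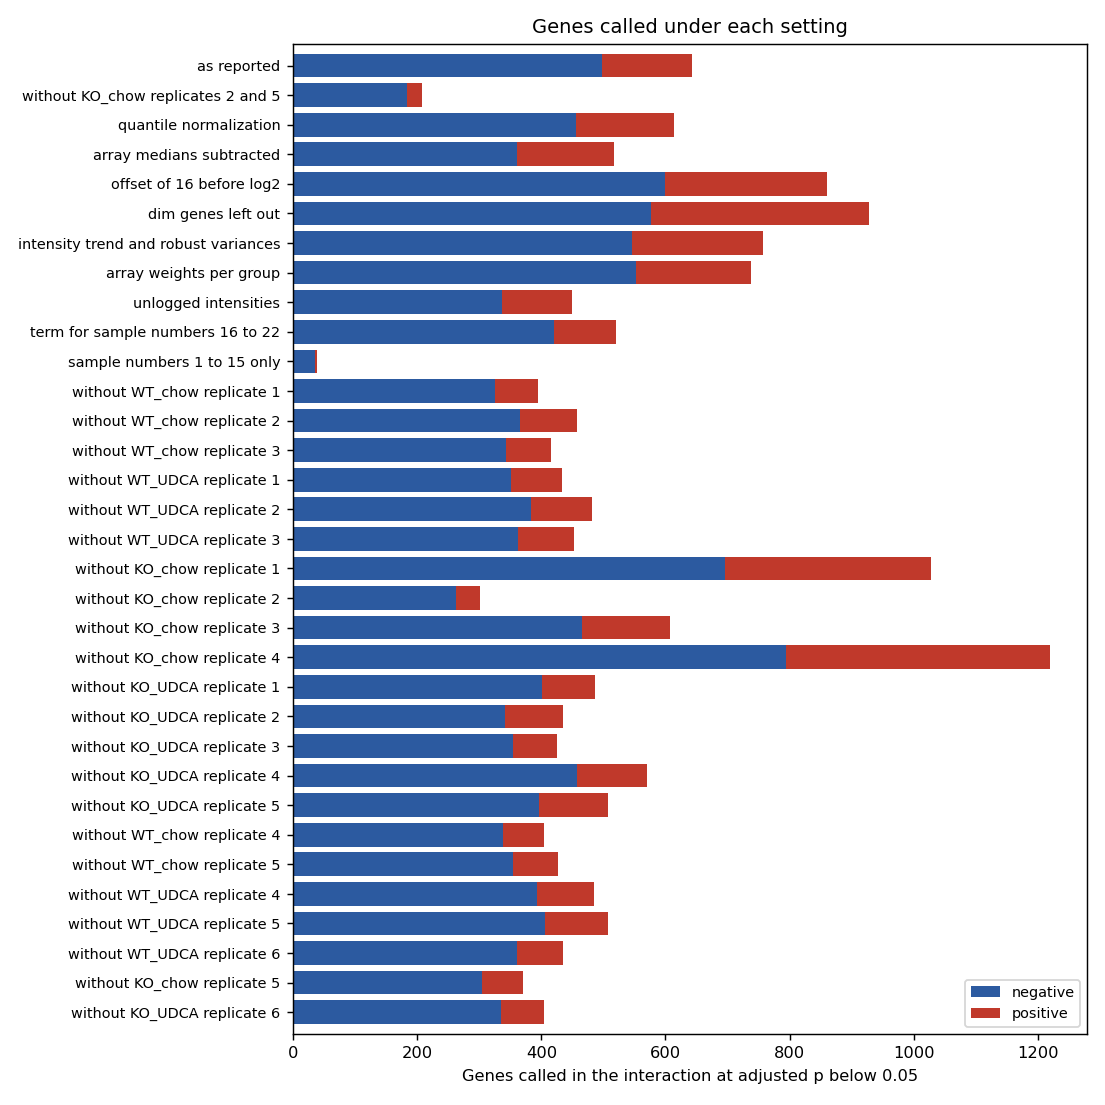
Bars give the number of genes called in the interaction (limma adjusted p below 0.05), negative in blue and positive in red, as reported and under 32 alternatives. The count of 642 ranged from 301 to 1219 when 1 array was left out, fell to 207 without KO_chow replicates 2 and 5 and was 38 with sample numbers 1 to 15 only.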

How the data were processed

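Liver RNA of 22 mice was measured on 22 arrays, 1 mouse per array, in 4 groups taken from the sample labels. The authors deposited 1 table of intensity values on a linear scale, made with RMA (background correction, quantile normalization and probe set summary) per the submitters' processing notes; neither its version nor the genome build is given in the sources used here. Each of the 22 columns matched 1 sample (0 columns without a sample). Intensities were log2 transformed with no further normalization or filter, and rows were named through the platform annotation, where 958 rows carry no symbol.

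In R 4.3.3 with limma 3.58.1, all 22 arrays were fitted with 1 mean per group, and contrasts were tested with lmFit and eBayes (two-sided, Benjamini-Hochberg over 24011 genes, threshold 0.05). "Called" means past that threshold, and ± gives the standard error. The fit was tested on simulated data. The number of arrays limits the precision, and replicate numbers follow the order of deposition.

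The members, the gene lists and the rule for naming genes were chosen with earlier results of these data known. Among called genes the rule takes the 14 most negative and 14 most positive interactions and the 8 largest with the larger wild-type effect, leaving out predicted genes, clones, small RNAs, olfactory receptors, pseudogenes and immune receptor segments. From each of 39 lists it takes up to 4 called members, or else the member with the smallest p, and 11 genes are always named; other list members are given by value only. Of 583 list genes, 39 matched no row. Alternatives were other normalizations, an offset, a filter on dim genes, other variance models, unlogged intensities, 2 checks on the sample numbers in the labels, and leaving out arrays.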

Additional observations from a re-analysis of the deposited data

Results flagged for a closer look

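The diet response differed between the genotypes, by the test of the difference itself, at 642 genes, 498 of them negative and 144 positive. Among the genes examined one by one, 412 sets of a gene and a group were searched for a mouse far from the rest of its group, and 26 such values were found (6 in KO_chow, 5 in WT_chow, 7 in WT_UDCA and 8 in KO_UDCA); chance gives about 5% of sets.

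In KO_UDCA, replicate 4 stood above the rest for Saa1 (7.71), Saa2 (7.506), Steap4 (9.338) and Lpl (7.925) and below for Cxcl14 (5.213). Replicate 3 stood high for Krt7 (5.352), replicate 2 low for Cd24a (5.443) and replicate 5 low for Cebpa (9.034), the hepatocyte transcription factor. In KO_chow, replicate 3 stood high for Sult2a1 (4.815) and low for Cd24a (6.555) and H2-Eb1 (6.865), replicate 5 low for Cd3g (4.181), replicate 4 high for Mrc1 (8.441) and replicate 2 high for the interferon-induced Oas1a (5.63).

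In WT_chow, single mice stood high for Sprr1a (4.391), Thbs1 (5.482) and Steap4 (9.26) and low for Fcna (7.13) and Gstt3 (8.28). In WT_UDCA they stood high for Lpl (7.842), H2-Aa (8.435), Cd3g (5.478), Elovl7 (4.639), Acpp (6.852) and Xbp1 (9.564) and low for Cyp7a1 (9.72).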

How the results depend on the processing

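Without KO_chow replicates 2 and 5, 207 genes were called instead of 642 (184 negative and 23 positive), 673 instead of 2701 for UDCA in knockout, and 50 instead of 102 list genes. With sample numbers 1 to 15 alone, which leaves fewer arrays, the counts were 38 (35 and 3), 866 and 15, and the uncalled Ctrb1 changed sign from -0.20 to 0.006. Positive calls were 261 with an offset of 16 and 351 with dim genes left out, and 60 list genes were called on unlogged intensities; the cause was not tested. When 1 array was left out, the interaction count ranged from 301 to 1219 (negative 262 to 794, positive 39 to 425), UDCA in knockout from 1632 to 3201, list genes from 65 to 153 and UDCA in wild type from 0 to 1. The share of negative calls was 77.6%, and 74.4% with quantile normalization, 69.8% with array medians subtracted, 62.2% with dim genes left out, 88.9% without KO_chow replicates 2 and 5 and 92.1% with sample numbers 1 to 15. The share of called genes with the larger effect in knockout was between 95.69% and 98.59% when 1 array was left out, and 86.84% with sample numbers 1 to 15. No paired analysis was possible because the replicate numbers only name samples in order and each sample number in the labels is used once, so none is shared between groups; the numbers pass through the 4 groups as 1 to 15 and again as 16 to 22, and with a term for this 520 genes were called.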
